A study of Mus musculus with 8 samples.

Results

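Genes of SREBP-driven sterol and fatty acid synthesis were examined in mouse splenic CD8+ T cells treated with DADA or with its solvent. The 30 members were taken by gene symbol from a table of 22520 genes and assembled transcripts, and comprise 23 sterol genes and 7 fatty acid genes. CD8+ T cells had been purified from the spleen by negative selection and kept for 6 days under anti-CD3 and anti-CD28 antibodies with IL-2, a culture that both groups shared and that models persistent T cell receptor stimulation. From day 3 to day 6 the medium of 4 cultures held 40 µM DADA (diisopropylamine dichloroacetate, an inhibitor of the pyruvate dehydrogenase kinases) and that of the other 4 an equal volume of DMSO. The labels call the replicates biological but do not tie them to animals, so p-values measure the spread between these libraries.

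Sterol regulatory element-binding proteins (SREBPs) are transcription factors made as precursors in the membrane of the endoplasmic reticulum. SCAP escorts them to the Golgi when membrane sterols are low, where proteases release the active part, and INSIG proteins hold SCAP back when sterols are plentiful. The form encoded by *Srebf2* acts mainly on cholesterol synthesis and uptake, and the forms encoded by *Srebf1* act mainly on fatty acid synthesis and desaturation. Activated T cells draw on both pathways to build membranes as they grow and divide.

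DADA-treated CD8+ T cells had 2.03-fold the *Scd1* and 1.84-fold the *Scd2* level of DMSO-treated cells, 2 genes for stearoyl-CoA desaturases, and more *Elovl6*, *Acss2* and *Insig1* mRNA. The opposite held for *Acaca* and *Fasn*, the genes of chain synthesis up to palmitate. *Acaca* fell to 65.0% and *Fasn* to 85.0% of the mean DMSO level. *Acaca* shared 42.8% of its stretches of 100 bases with other genes, so its level is uncertain to that extent. Most cholesterol synthesis enzymes rose by small amounts, and the summed level of the 17 enzymes measured was 1.08 times that with DMSO. Levels are fragment numbers normalised for transcript length and library size (FPKM), and differences were tested with limma on log2(FPKM + 1), with a call at a Benjamini-Hochberg adjusted p-value under 0.05.

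All 30 members passed the filter of 1 FPKM in at least 4 libraries. Of these, 18 were called higher and 5 lower with DADA, and 7 were not called. The 23 called members are 76.7% of the list, beside 66.2% of the 10666 genes tested. By direction, 30.9% of all genes tested were called higher and 35.3% lower. A call with a log2 fold change of at least 0.4 in size was made for 5 members upward and 1 downward, and for 22.9% of all genes. The 4 DMSO and the 4 DADA libraries did not overlap in FPKM for 22 members, as for 60.6% of all genes tested. The median log2 fold change was 0.15 over the members and -0.02 over all genes tested. Regardless of direction, the median size of the log2 fold change over all genes tested was 0.21.

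The sterol and the fatty acid genes differed in how far they moved. Of the 23 sterol members, 14 were called higher, 2 lower and 7 not called, with a median log2 fold change of 0.13 and a range from -0.26 to 0.58. Of all genes tested, 66.2% were called, 30.9% higher and 35.3% lower, a share close to the 69.6% of sterol members called. When each library was rescaled to the same total (TPM), 16 were called higher and 0 lower. All 7 fatty acid members were called, 4 higher and 3 lower, and their log2 fold changes spanned -0.59 to 1.00 with a median of 0.56. Over all genes tested, the 5th and 95th percentiles lay at -0.53 and 0.82, so both Scd genes lay above and *Acaca* below the range between them.

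**Figure D1:**
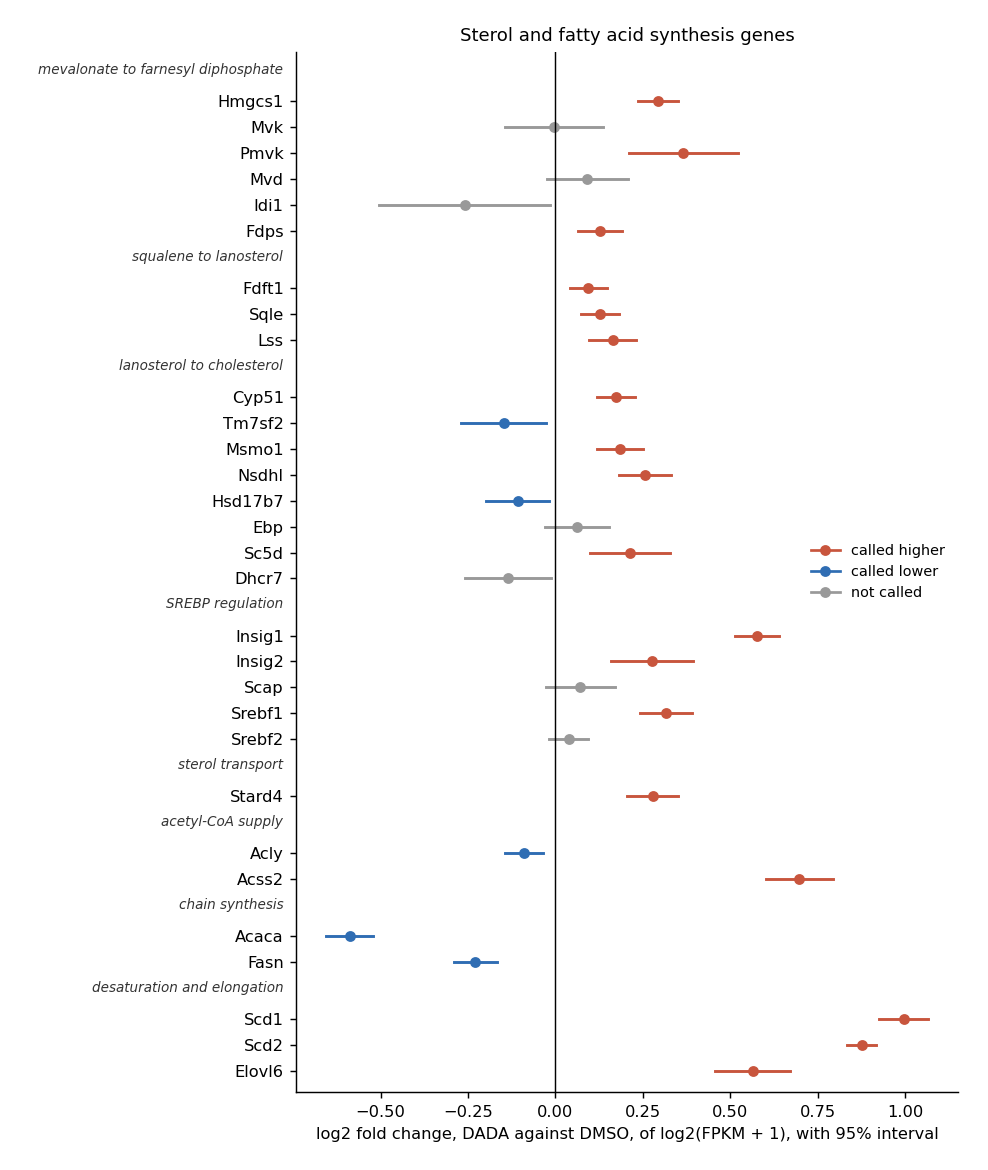
Log2 fold change of each member between DADA and DMSO on the log2(FPKM + 1) scale, with its 95% interval from limma, grouped by role. The sterol genes lie between -0.26 and 0.58, whereas the fatty acid genes reach from -0.59 for Acaca to 1.00 for Scd1.

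Replicate libraries were close to each other, with correlations across genes of 0.993 to 0.995 within groups and 0.958 to 0.961 between groups, and the total FPKM of a library lay between 438299 and 456939. The 6 CD8+ T cell markers (*Cd3d*, *Cd3e*, *Cd3g*, *Cd8a*, *Cd8b1*, *Thy1*) summed to 1053 to 1065 FPKM with DMSO and 1185 to 1241 with DADA. All 6 were called higher, by 0.08 to 0.35 on the log2 scale, beside 30.9% of all genes tested called higher. B cell markers summed to 2.59 to 3.54 FPKM with DMSO and 2.36 to 3.09 with DADA, nearly all from *Cd79b*. The 5 myeloid markers summed to 3.51 to 3.99 and 5.15 to 5.72 FPKM. Of these, *Cd68* was called higher, *Csf1r* was listed at 0 in every library, and *Lyz2*, *Cd14* and *Itgam* reached at most 0.165 FPKM. CD4, NK and erythroid markers each summed to no more than 0.411 FPKM in any library. The part of the rise in *Cd68* and in the CD8+ T cell markers in the results on lipid genes was not tested. In bulk RNA, fewer cells of a type and less RNA per cell cannot be told apart.

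Promoter sequences of the members were read from RefSeq (build GRCm38.p6), since the genes are grouped by a transcription factor that binds sterol regulatory elements together with NF-Y. The table held a window for 24 of the 30 members, 32 windows in all, and none for *Scd1*, *Scd2*, *Fdft1*, *Stard4*, *Sqle* and *Fdps*. In the 250 bases before each start, both strands were searched for TCACNCCAC (a sterol element core, N being any base), CCAAT (the NF-Y box) and CACGTG (an E-box). The NF-Y box lay in 65.6% of the member windows and in 33.8% of all 32851 windows. The E-box lay in 15.6% of member windows against 6.02% of all, and the sterol element core in 3.12% against 1.05%. The sterol element core was matched in 1 member, *Hmgcs1*, with these exact letters. A match describes the letters alone.

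Of these windows, 3 are printed, 5′ to 3′ on the strand of the gene with matches in capitals, because they belong to members described with values below: *Hmgcs1*, called higher, with a sterol element core whose first base lies at position -137 from its start, *Insig1*, the sterol gene with the largest change, with an E-box, and *Fasn*, called lower. In *Hmgcs1* the sterol element core reads TCACCCCAC and the 3 NF-Y boxes lie on the opposite strand, as ATTGG. In *Insig1* the window ends before an annotated exon. In *Fasn* 2 of the 3 NF-Y boxes overlap, 1 on each strand.
Hmgcs1, plus strand, chr13:119690101-119690350: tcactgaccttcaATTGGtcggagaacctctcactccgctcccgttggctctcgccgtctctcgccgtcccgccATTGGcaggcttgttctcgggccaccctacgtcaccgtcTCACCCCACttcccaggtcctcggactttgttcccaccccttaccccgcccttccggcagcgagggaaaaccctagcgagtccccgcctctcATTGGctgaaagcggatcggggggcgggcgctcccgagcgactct
Insig1, plus strand, chr5:28071162-28071362: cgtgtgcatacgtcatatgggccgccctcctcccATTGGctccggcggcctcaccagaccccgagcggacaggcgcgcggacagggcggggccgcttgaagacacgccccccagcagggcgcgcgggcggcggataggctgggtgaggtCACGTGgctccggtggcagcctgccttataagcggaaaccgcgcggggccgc
Fasn, minus strand, chr11:120824548-120824797: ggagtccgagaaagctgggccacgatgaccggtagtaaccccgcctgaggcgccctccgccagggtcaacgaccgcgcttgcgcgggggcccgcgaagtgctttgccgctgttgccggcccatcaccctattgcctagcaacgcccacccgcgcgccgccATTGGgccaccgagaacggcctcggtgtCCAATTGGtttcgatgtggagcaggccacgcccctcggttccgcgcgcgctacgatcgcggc

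The regulators of SREBP were taken first. *Insig1*, itself a target of SREBP and an anchor for SCAP, was at 32.6, 33.9, 34.7 and 33.6 FPKM in DMSO libraries 1 to 4 and at 51.8, 50.2, 49.2 and 51.7 FPKM in DADA libraries 1 to 4. The groups did not overlap, and the log2 fold change was 0.58 (SE 0.0282, adjusted p = 5.83e-08), the largest among the sterol members. Only 8.29% of all genes tested had a higher log2 fold change. *Insig2*, the second anchor, which is not controlled by SREBP in the same way, was at 10.3, 12.3, 11.6 and 12.1 FPKM with DMSO and at 14.6, 14.2, 13.6 and 14.3 FPKM with DADA. It also rose without overlap, by 0.28 (SE 0.0526, adjusted p = 0.00104).

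*Srebf1*, which encodes the form that acts on fatty acid genes, was at 28.6, 27.8, 26.9 and 26.6 FPKM with DMSO and at 35.6, 35.2, 33.3 and 33.8 FPKM with DADA. It was higher in every DADA library than in any DMSO library, by 0.32 on the log2 scale (SE 0.0332, adjusted p = 1.51e-05). *Srebf2*, which encodes the form that acts on cholesterol genes, was at 80.3, 78.4, 79.5 and 76.2 FPKM with DMSO and at 82.5, 79.4, 81.8 and 79.4 FPKM with DADA. The groups overlapped and the difference was not called, at 0.04 with a 95% interval from -0.02 to 0.09 (adjusted p = 0.199). Under TPM and quantile scaling it was called, at 0.07 (adjusted p = 0.0424) and 0.09 (adjusted p = 0.0106). *Scap*, the escort, was at 21.9, 21.9, 20.6 and 23.2 FPKM with DMSO and at 24.0, 23.2, 23.5 and 21.5 FPKM with DADA, with overlap between the groups. Its difference of 0.07 (95% interval -0.03 to 0.17) was not called (adjusted p = 0.178).

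**Figure D2:**
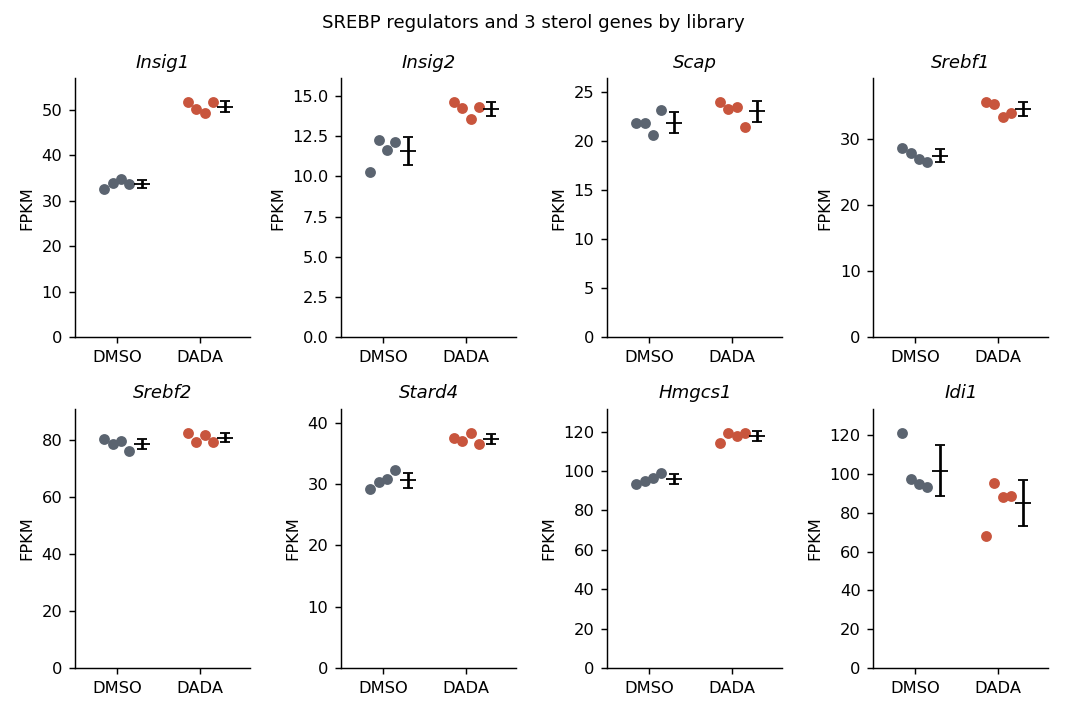
FPKM per library of the 5 SREBP regulators and of Stard4, Hmgcs1 and Idi1, with the mean and SD of the 4 libraries of each group beside the points. Insig1 is separated most widely, at 32.6 to 34.7 with DMSO and 49.2 to 51.8 with DADA, while Srebf2 and Scap overlap and 1 library of each group stands apart for Idi1.

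Related genes were then set against each other within each library, in 3 pairs. The log2 ratio of *Insig1* to *Insig2*, as log2 of (FPKM + 1), was 1.57, 1.40, 1.499 and 1.40 with DMSO and 1.76, 1.75, 1.78 and 1.78 with DADA. The mean rose by 0.30 (SE 0.0435), from 2.91 to 3.57 times as much *Insig1* as *Insig2* by FPKM. For *Srebf1* to *Srebf2* the log2 ratio was -1.46, -1.46, -1.53 and -1.49 with DMSO and -1.19, -1.15, -1.27 and -1.21 with DADA, a difference of 0.28 (SE 0.0298). *Srebf1* thus stood at 0.350 times the level of *Srebf2* with DMSO and at 0.427 times with DADA. For *Scd1* to *Scd2* the log2 ratio was -2.93, -2.91, -2.95 and -2.97 with DMSO and -2.77, -2.85, -2.79 and -2.86 with DADA. This difference was 0.12 (SE 0.0263), so *Scd1* rose further than *Scd2*, though *Scd2* stayed the more abundant in every library. In each pair the 2 groups did not overlap. The two-sided exact permutation test over 70 assignments gave p = 0.0286, the smallest that 4 against 4 libraries allow, and 0.0286 after adjustment over the 3 pairs. Among single genes tested, 60.6% did not overlap either. Ratios of other genes were not computed, so whether the separation is particular to these pairs was not tested.

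**Figure D3:**
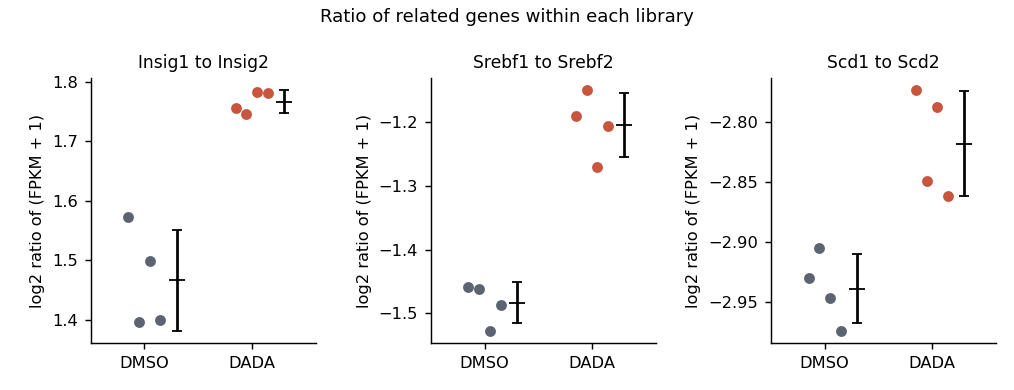
Log2 ratio of (FPKM + 1) of 3 pairs of related genes in each library, with the mean and SD of the 4 libraries of each group; each panel has its own axis, which does not start at 0. The DADA libraries lie above the DMSO libraries in all 3 pairs, by 0.30, 0.28 and 0.12 on the log2 scale.

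Of the 17 sterol enzymes, 10 were called higher, 2 lower and 5 not called. The share called, 70.6%, is close to the 66.2% of all genes tested. The summed level of the 17 enzymes was 803 to 845 FPKM with DMSO and 870 to 909 FPKM with DADA, so the groups did not overlap. Over the same libraries the sum over all genes changed by a factor of 0.978.

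In the mevalonate part, from acetyl-CoA units to farnesyl diphosphate, 3 of 6 enzymes were called higher and none lower. Over all genes tested, 30.9% were called higher and 35.3% lower. *Hmgcs1*, which condenses acetoacetyl-CoA with acetyl-CoA, lay between 93.2 and 99.0 FPKM with DMSO and between 114 and 119 FPKM with DADA. It rose by 0.29 (SE 0.0253, adjusted p = 3.76e-06) and overlaps an antisense gene, as described with the shared sequences. *Pmvk*, the phosphomevalonate kinase, rose from 22.2 ± 1.95 to 28.9 ± 2.44 FPKM (mean ± SD, n = 4), by 0.37 on the log2 scale, the largest change among the enzymes. *Fdps*, which makes farnesyl diphosphate and was the most abundant sterol enzyme, rose from 205 ± 5.13 to 224 ± 6.92 FPKM, by 0.13. Most of its sequence is shared with other genes, as also described there. *Mvk*, the mevalonate kinase between *Hmgcs1* and *Pmvk*, was at 11.4 ± 0.985 and 11.3 ± 0.759 FPKM, and its 95% interval ran from -0.15 to 0.14. *Mvd*, which decarboxylates the product of *Pmvk*, was not called at 0.09 (adjusted p = 0.143), but was called without DADA library 3, at 0.15 (adjusted p = 0.00471), and under TPM scaling, at 0.12 (adjusted p = 0.0488).

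*Idi1*, the isomerase that makes dimethylallyl diphosphate, was the least even member between replicates, with a coefficient of variation of 13.0% with DMSO and 13.9% with DADA against medians of 3.27% and 2.72% over the members. It was at 121, 97.3, 94.9 and 93.2 FPKM with DMSO and at 68.0, 95.4, 88.0 and 88.6 FPKM with DADA. DMSO library 1 was high and DADA library 1 low, and the groups overlapped through DADA library 2. The difference of -0.26 was not called (adjusted p = 0.0595), but was called without DADA library 2, at -0.32 (adjusted p = 0.0356). Without DADA library 1 it shrank to -0.16.

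All 3 enzymes from farnesyl diphosphate to lanosterol were called higher, by small amounts. Over all genes tested, 30.9% were called higher. *Fdft1*, the squalene synthase, rose from 41.5 ± 0.529 to 44.3 ± 0.756 FPKM. *Sqle*, the epoxidase and a control point of the pathway, rose from 59.3 ± 1.21 to 64.9 ± 1.19 FPKM. *Lss*, which closes the rings to lanosterol, rose from 22.5 ± 0.736 to 25.4 ± 0.321 FPKM. On the log2 scale these were 0.09, 0.13 and 0.16 (adjusted p = 0.00479, 9.57e-04 and 7.54e-04). The groups did not overlap for any of the 3, as for 60.6% of all genes tested.

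From lanosterol to cholesterol, 4 of 8 enzymes were called higher and 2 lower, where the shares over all genes tested were 30.9% and 35.3%. The 4 higher ones were the demethylation enzymes *Cyp51*, *Msmo1* and *Nsdhl* and the desaturase *Sc5d*, with log2 fold changes of 0.17, 0.18, 0.26 and 0.21. *Cyp51* was the most abundant of the 8, rising from 82.5 ± 1.93 to 93.2 ± 1.70 FPKM. The 2 lower ones were *Tm7sf2*, a sterol reductase, from 8.20 ± 0.341 to 7.31 ± 0.552 FPKM, and *Hsd17b7*, a ketosteroid reductase of the demethylation steps, from 11.1 ± 0.413 to 10.2 ± 0.377 FPKM. Both calls were lost under some alternatives, 7 of 16 for *Tm7sf2* and 8 of 16 for *Hsd17b7*. *Tm7sf2* fell by 0.15 (adjusted p = 0.0345), and its call was lost without DMSO library 1, 3 or 4 or DADA library 3 or 4, where adjusted p lay between 0.0551 and 0.0882. *Hsd17b7* fell by 0.11 (adjusted p = 0.0355), and its call was lost without any 1 of DMSO libraries 2, 3 and 4 and DADA libraries 2, 3 and 4, where adjusted p lay between 0.0539 and 0.0982. *Dhcr7*, the last reductase, was at 13.1 ± 0.873 and 11.8 ± 0.713 FPKM, with a difference of -0.14 (adjusted p = 0.0501) that was called in 5 of 16 alternatives, among them without DMSO library 3 (adjusted p = 0.0252) and without DADA library 3 (adjusted p = 0.0257). *Ebp*, the sterol isomerase, was not called, at 0.06 (95% interval -0.03 to 0.15).

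*Stard4*, which carries cholesterol between membranes and is also a target of SREBP, was at 29.2, 30.3, 30.7 and 32.2 FPKM with DMSO and at 37.5, 37.0, 38.3 and 36.4 FPKM with DADA. It rose by 0.28 (SE 0.0328, adjusted p = 3.68e-05) with no overlap, close in size to *Hmgcs1*.

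The fatty acid genes moved in opposite directions along the pathway. *Acly* and *Acss2* both supply acetyl-CoA outside the mitochondria, *Acly* from citrate and *Acss2* from acetate. *Acss2* was at 5.20, 5.24, 5.17 and 5.37 FPKM with DMSO and at 9.22, 9.41, 9.41 and 8.47 FPKM with DADA. It rose by 0.70 (SE 0.0429, adjusted p = 2.96e-07), and 6.43% of all genes tested had a higher log2 fold change. *Acly*, the more abundant of the pair by FPKM, was at 77.1, 80.3, 78.4 and 79.5 FPKM with DMSO and at 74.5, 72.1, 76.0 and 73.5 FPKM with DADA. It fell by 0.09 (adjusted p = 0.00823), and this call was lost under TPM (-0.06, adjusted p = 0.106) and quantile scaling (-0.04, adjusted p = 0.177).

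The mRNA levels of the chain synthesis genes *Acaca* and *Fasn* fell, and synthesis itself was not measured. *Acaca* encodes the acetyl-CoA carboxylase that makes malonyl-CoA and commits carbon to fatty acids. Its level was 21.1, 22.3, 21.9 and 22.3 FPKM with DMSO and 14.5, 14.1, 14.1 and 14.2 FPKM with DADA. The groups lay far apart relative to their spread, and the log2 fold change was -0.59 (SE 0.0298, adjusted p = 7.34e-08). Only 3.36% of all genes tested had a lower log2 fold change. *Acaca* shares sequence with a pseudogene, as described with the shared sequences. *Fasn*, which extends the chain to palmitate, was at 48.8, 47.2, 47.6 and 46.1 FPKM with DMSO and at 41.7, 40.0, 39.4 and 40.3 FPKM with DADA. It fell by 0.23 (SE 0.0272, adjusted p = 3.90e-05), again with no overlap. Together both genes summed to 68.4 to 69.9 FPKM with DMSO and 53.5 to 56.2 FPKM with DADA, a ratio of 0.787.

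The desaturases *Scd1* and *Scd2* and the elongase *Elovl6* rose. *Scd1*, a desaturase that makes oleate from stearate, was at 26.3, 27.0, 26.6 and 25.8 FPKM with DMSO and at 55.6, 51.7, 55.4 and 52.2 FPKM with DADA. Each DADA library was well above every DMSO library, and the log2 fold change was 1.00 (SE 0.0313, adjusted p = 2.16e-09), the largest of the 30 members. *Scd2*, the related desaturase and the most abundant fatty acid gene in both groups, was at 207, 208, 211 and 209.6 FPKM with DMSO and at 386, 379, 388 and 385 FPKM with DADA. It rose by 0.88 (SE 0.0182, adjusted p = 1.07e-10). *Elovl6*, which elongates palmitate to stearate, was at 7.46, 8.20, 7.86 and 8.75 FPKM with DMSO and at 12.4, 11.9, 12.8 and 12.5 FPKM with DADA. It rose by 0.56 (SE 0.0478, adjusted p = 3.22e-06). The 3 genes summed to 241 to 246 FPKM with DMSO and 442 to 456 FPKM with DADA, a ratio of 1.85, most of it from *Scd2*.

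**Figure D4:**
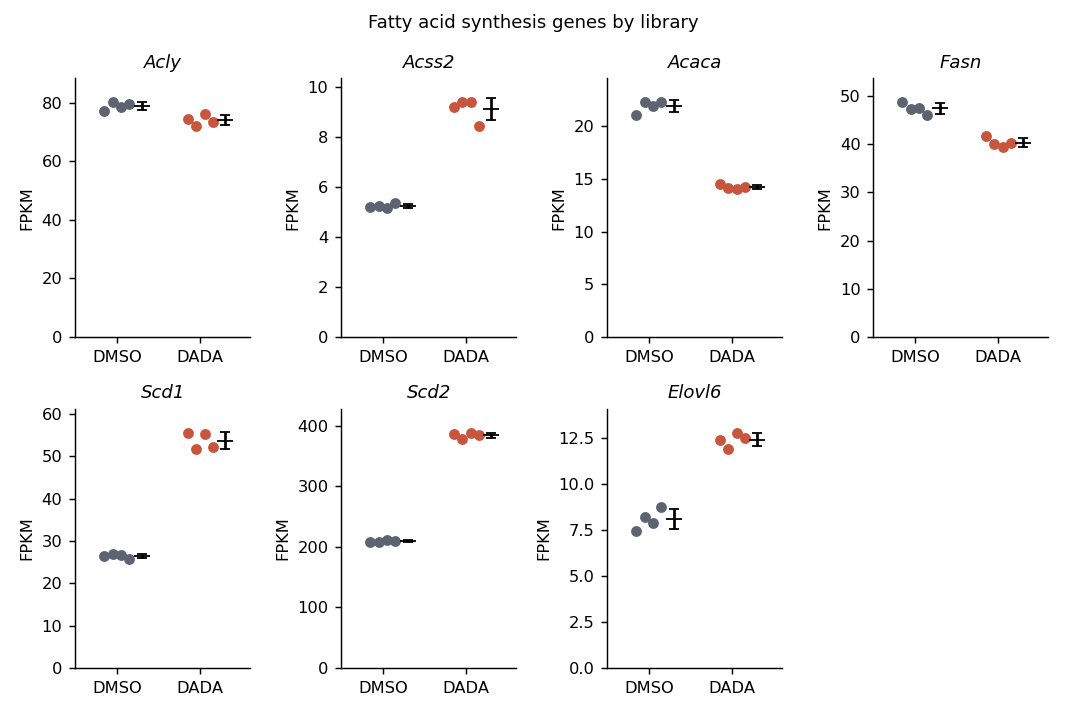
FPKM per library of the 7 fatty acid members, with the mean and SD of the 4 libraries of each group beside the points. Acss2, Scd1, Scd2 and Elovl6 lie higher with DADA and Acaca and Fasn lower. Acly lies lower by the smallest amount (0.09 on the log2 scale). The groups do not overlap for any of the 7, as for 60.6% of all genes tested.

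Genes next to the members in the same pathways were counted from lists set by function. Of 37 such companions, 33 were tested, of which 10 were called higher and 11 lower. The share called, 63.6%, is close to the 66.2% of all genes tested, so these counts say nothing particular about the companions. Companions with the largest called changes are given for each list. Among 15 sterol and isoprenoid companions, 5 were called higher and 4 lower. *Npc2*, which hands cholesterol out of lysosomes, rose from 41.0 ± 1.80 to 82.5 ± 1.22 FPKM, by 0.99 (adjusted p = 2.62e-09). *Vldlr*, a receptor for triglyceride-rich lipoproteins, rose from 5.10 ± 0.361 to 10.2 ± 0.756 FPKM, by 0.88. *Pdss1*, which builds the isoprenoid tail of ubiquinone, fell from 15.4 ± 1.45 to 10.6 ± 0.448 FPKM, by 0.49 on the log2 scale.

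The liver X receptors, sensors of oxysterols, raise *Srebf1* and genes of sterol efflux. Of 6 genes on this side, 4 were tested, and *Nr1h3* and *Mylip* were under the filter. *Nr1h2*, which encodes the receptor found in most tissues, rose from 30.3 ± 1.41 to 39.6 ± 0.748 FPKM, by 0.38. *Lpcat3*, which places polyunsaturated chains in phospholipids, rose from 20.3 ± 0.446 to 25.3 ± 2.31 FPKM, by 0.30. *Smpdl3a*, a phosphodiesterase induced by these receptors, fell by 0.33 on the log2 scale, with overlap between the groups. *Abcg1*, an exporter of sterols, was not called, at 0.12 (adjusted p = 0.0625).

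Of 16 fatty acid companions, 14 were tested, with 3 called higher and 6 lower, beside 30.9% and 35.3% of all genes tested. *Me1*, the cytosolic malic enzyme that makes NADPH, was at 0.103 to 0.166 FPKM with DMSO and at 1.59 to 1.86 FPKM with DADA. It rose by 1.28 on the log2(FPKM + 1) scale, which understates the change at such low levels, and it passed the filter only through the DADA libraries. *Acsl3*, an acyl-CoA synthetase, rose from 11.9 ± 0.607 to 15.5 ± 0.538 FPKM. *Hacd3*, a dehydratase of the elongation cycle, fell from 62.6 ± 2.10 to 40.4 ± 1.09 FPKM, and the acyl-CoA synthetase *Acsl5* fell from 81.6 ± 0.893 to 53.0 ± 1.45 FPKM. On the log2 scale these changes were -0.62 and -0.61, close to that of *Acaca*. Other elongation genes did not all follow *Elovl6*. The elongase *Elovl5* and the reductase *Tecr* fell by 0.32 and 0.25 on the log2 scale, and *Elovl1* was not called at -0.06. *Hsd17b12*, another reductase of the cycle, was called higher, by 0.08 (adjusted p = 0.00569).

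**Figure D5:**
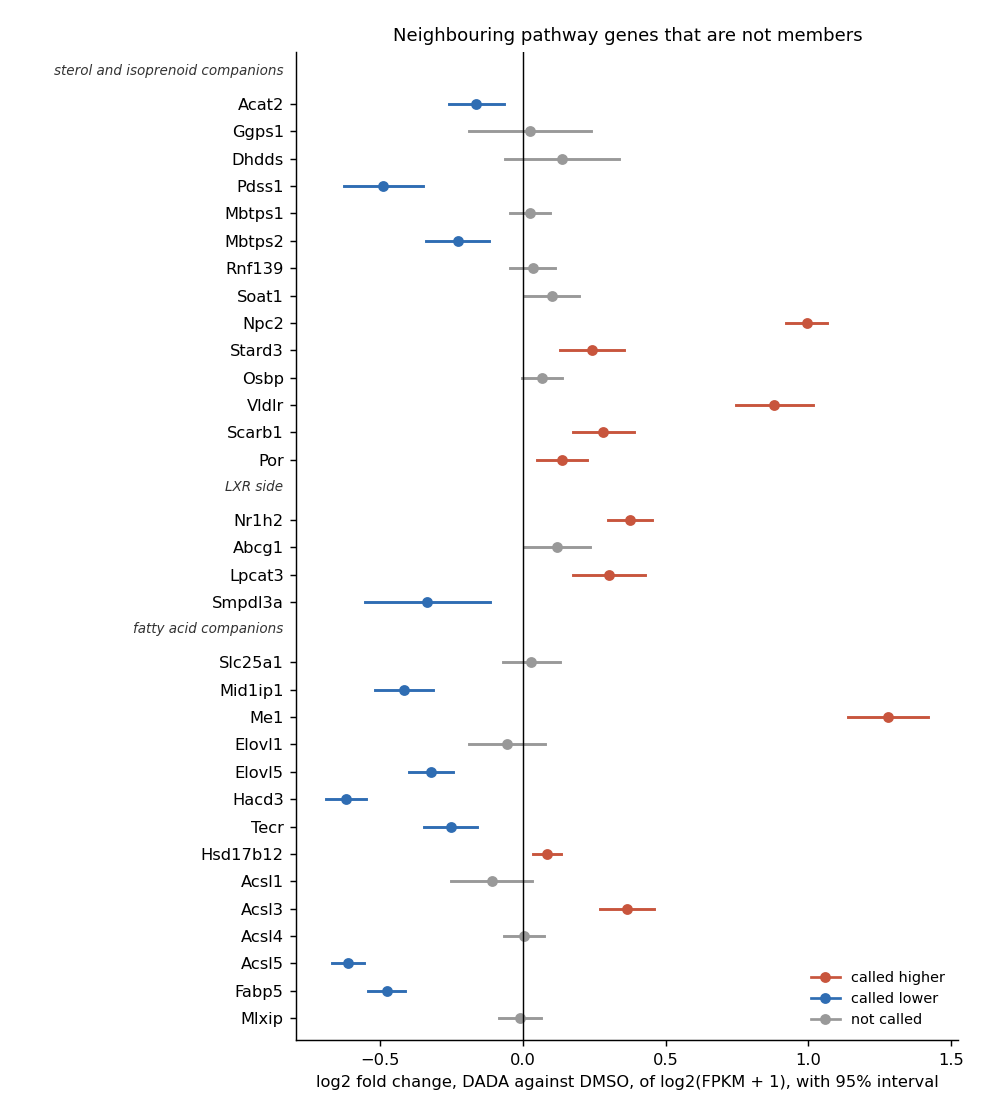
Log2 fold change of the companion genes reported here on the log2(FPKM + 1) scale, with the 95% interval from limma, grouped by list. Npc2, Vldlr and Me1 lie highest, at 0.99, 0.88 and 1.28, and Hacd3 and Acsl5 lowest, at -0.62 and -0.61.

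Some members share sequence with other genes, so that fragments could be counted for either. Among exonic stretches of 100 bases (GENCODE M21), 17 of the 30 members shared none with another gene and 6 shared over 5%. Each percentage counts stretches shared with any other gene on either strand, and the gene named shared the most. *Fdps* shared 75.8%, the most with the overlapping gene *Gm43738*. *Acaca* shared 42.8%, the most with the processed pseudogene *Gm5182*, and *Idi1* 27.6%, the most with the processed pseudogene *Gm13502*. *Fdft1* shared 21.5%, the most with *Ctsb* on the opposite strand. *Ctsb* was itself higher with DADA, at 20.4 to 21.8 FPKM with DMSO against 25.6 to 26.2 FPKM. *Hmgcs1* shared 10.8%, the most with the antisense gene *Gm48342*, and *Scap* 7.22%, the most with *5830462I19Rik*. The levels of these 6 genes are uncertain to that extent. For *Fdft1*, *Hmgcs1* and *Scap* this depends on whether counting used strand, which is not given in the sources used here. For *Fdps*, *Acaca* and the part of *Idi1* shared with its pseudogene, strand does not separate the copies. Other genes also overlapped 9.22% of the exon bases of *Idi1*, the most being *Gm48574* on the opposite strand. *Acss2* shared 4.03%, the most with *Ggt7*, which was itself higher with DADA, by 0.55 on the log2 scale. Other genes overlapped 9.12% of the exon bases of *Acss2*, the most being *Gss* on the opposite strand. *Gss* was lower with DADA, at -0.21 on the log2 scale. *Tm7sf2* shared no such stretch, but other genes overlapped 12.1% of its exon bases, the most being *Vps51* on the same strand. *Vps51* was higher with DADA, by 0.31 on the log2 scale, and strand does not separate that overlap. *Scd1* shared 2.66%, the most with *Scd3*, and *Scd2* 0.896%, the most with *Scd1*. *Insig1*, *Insig2*, *Stard4*, *Acly* and *Fasn* shared none.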

How the data were processed

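Bulk RNA-seq of 8 libraries (4 DMSO, 4 DADA) was analysed, grouped by their titles. The labels also tag the groups as genotype (control and model), while the titles (Ctrl and DADA), the design text and the treatment protocol describe a treatment, the reading used here. The authors deposited an FPKM table made from paired reads of 150 bases. The submitters' processing notes name CASAVA 1.8.2, FastQC 0.11.9, HISAT2 2.0.5, StringTie 1.3.3, Picard 1.41 and SAMtools 0.1.18, and the builds GRCm39 and GRCh38, with no role for each, so no coordinates of the deposited table are given. FPKM hold no read counts. Of the low values of 4431 genes with 1 transcript, 45.7% to 54.3% lay within 0.1 of a whole fragment at the best of many trial depths. Chance gives 20% at a single fixed depth, which cannot be set against the best of many. Depth per library was therefore taken as unknown and no count test was run. Such tables weigh deeper and shallower libraries alike, and the spread between the 4 libraries of a group sets the precision.

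Values were used as log2(FPKM + 1), a scale that understates changes of low genes, and a gene was tested if 4 or more of the 8 libraries held 1 FPKM or more, which left 10666 genes. limma 3.58.1 in R 4.3.3 was fitted with treatment as its single term, using moderated variances that follow a trend on mean level (eBayes), and p-values were adjusted over the whole table by the Benjamini-Hochberg method. Simulated data with known changes served to test the fit. For pair ratios an exact permutation test, two-sided, was used. The members and the lists of companions and markers were chosen with earlier results of these data known. Values in every library are given for the SREBP regulators, for the members called with a log2 fold change of at least 0.4 in size and for the pairs, and for the companions the 2 largest called changes in each direction of each list. The values by library of *Stard4*, *Idi1*, *Acly* and *Fasn* and those of *Abcg1*, *Elovl5*, *Tecr*, *Elovl1* and *Hsd17b12* were added after their values were seen. Counts over the lists include a few genes whose own values are not reported here. Alternatives were a pseudocount of 0.1, no filter, a mean of at least 5 FPKM, TPM, median-ratio and quantile scaling, a block for the replicate number, eBayes with no trend, and each library left out in turn. Promoter windows came from RefSeq, and shared stretches of 100 bases from GENCODE M21. Python 3.11.15, numpy 2.4.6, pandas 2.3.3 and matplotlib 3.10.9 were used.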

Additional observations from a re-analysis of the deposited data

Results flagged for a closer look

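One library of a group lay far from the rest, measured as the gap to its nearest neighbour over the whole range of the group, in 3 of the 60 groups of 4 libraries looked at, where chance gives about 1 in 20, or 3. *Mvk* was at 12.8 FPKM in DMSO library 1 and at 10.7 to 11.02 FPKM in the other 3, a ratio of 0.849. *Idi1* was at 121 FPKM in the same library and at 93.2 to 97.3 FPKM in the others, a ratio of 0.853. *Cyp51* was at 79.7 FPKM in DMSO library 2 and at 83.2 to 83.9 FPKM in the others, a ratio of 0.845. Without these libraries the log2 fold changes were 0.05 for *Mvk* and -0.17 for *Idi1*, neither called, and 0.16 for *Cyp51*, which stayed called.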

How the results depend on the processing

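Over 16 alternatives, 448 of the 480 log2 fold changes of members kept their direction and their side of the threshold, 17 lost a call, 10 gained one and 5 changed sign, and 20 of the 23 called members were called in one direction under every alternative. The exceptions were *Acly*, *Tm7sf2* and *Hsd17b7*. The number of sterol members called lower, 2, became 1 without the filter on low values, 0 under TPM scaling and 1 with the replicate block, rose to 3 with a pseudocount of 0.1, under quantile scaling and for genes averaging 5 FPKM or more, and lay between 0 and 2 with single libraries left out. The median log2 fold change of the fatty acid members, 0.56, became 0.61 with a pseudocount of 0.1, 0.62 under TPM and 0.53 under quantile scaling, and lay between 0.53 and 0.60 with single libraries left out. *Mvk*, not called at any setting, changed sign to 0.0264 under TPM scaling and to 6.98e-05 under median-ratio scaling, and ranged from -0.0366 to 0.0507 with single libraries left out. The causes were not tested. To look for pairing, the mean of its group was subtracted from each gene, and the remaining deviations were correlated across genes between DMSO and DADA libraries. Correlations of these deviations were 0.0953, -0.12, -0.0877 and 0.0751 for same-numbered libraries. For differently numbered libraries they lay between -0.267 and 0.134. So few values cannot tell whether the replicate numbers pair the samples. With these numbers as a replicate block, 6995 genes were called rather than 7064, and the other counts of members and companions stayed at 14, 4, 3, 10 and 11. Depth is unknown, so small differences of low genes cannot be weighed against counting error.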
